A study of Mus musculus with 2 samples.

Results

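Mir92b, Mir137, Mir149 and Mir153 are 4 of the 1973 miRNA genes counted in the forebrain of mouse embryos at embryonic day 11.5. They were taken by name, as miRNAs known from the expansion of neural progenitors or the differentiation of neurons, and each was matched to its row by Ensembl identifier. The choice was made with earlier results of these data known. Their hairpins share no exact stretch of 20 bases with another miRNA gene. MicroRNA-seq, which reads RNA of under 30 bases, was done on 2 libraries of strain B6NCrl tissue, for which the labels name no allele and no treatment, and they form the only group. Replicate 1 pooled the forebrains of 109 embryos and replicate 2 those of 88 embryos, with male and female embryos in each pool, so no value belongs to a single animal. The labels give the tissue samples separate entries but the same donor entry. There is no control tissue, stage or treatment in the series, and its data compare these genes with each other, with other miRNA genes and between the libraries.

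A miRNA is cut from a hairpin transcript as a short mature RNA, and the bases after its 5′ end, called the seed, pair with sites in messenger RNAs and lower their output. The mouse forebrain at this stage is a thin neuroepithelium of dividing progenitors with the earliest neurons at its outer side. Background knowledge links miR-92b to the intermediate progenitors of the cortex, where it acts on the transcription factor Tbr2. It links miR-137 to neuronal differentiation through chromatin regulators such as Ezh2 and Lsd1, and miR-153 to synaptic and secretory proteins such as alpha-synuclein. Less is settled on miR-149, whose host gene Gpc1 encodes glypican 1, a cell surface proteoglycan of the developing brain.

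The mature sequences show what the 4 genes make and how far their seeds are shared. RefSeq sequences on GRCm38.p6, the assembly that mm10 names, were matched for 4 of 4 genes. The arm usually taken as the functional one is printed for each, 5′ to 3′, with the seed (bases 2 to 8) in capitals. The count tables do not separate the arms.
miR-92b-3p: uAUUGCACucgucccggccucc
miR-137-3p: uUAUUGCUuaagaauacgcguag
miR-149-5p: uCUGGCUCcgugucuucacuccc
miR-153-3p: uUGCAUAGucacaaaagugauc

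The seeds of miR-137-3p, miR-149-5p and miR-153-3p were carried by 0 other genes among the 1738 mature RNAs of the RefSeq table. Of the other arms, the seeds of miR-92b-5p, miR-137-5p and miR-153-5p were also on 0 other genes, and that of miR-149-3p, AGGGAGG, was on 4 other genes. Of all 1398 distinct seeds in that table, 84.5% likewise came from 1 gene. The seed of miR-92b-3p was shared with 6 other genes, which make the 5 mature RNAs printed here to show the common seed and the differing tails.
miR-92a-3p: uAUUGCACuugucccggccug
miR-25-3p: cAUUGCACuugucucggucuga
miR-363-3p: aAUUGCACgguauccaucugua
miR-32-5p: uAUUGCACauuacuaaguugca
miR-367-3p: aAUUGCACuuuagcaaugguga

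Among these relatives, miR-92a-3p was closest to miR-92b-3p, with the same base at 19 of 21 positions and the substitutions C10U and C21G (the base of miR-92b-3p, the position counted from its 5′ end, the base of the relative). The other relatives matched at 10 to 16 of 22 positions. The seed of miR-137-3p is not that of this family, but bases 2 to 7 of miR-137-3p, UAUUGC, are bases 1 to 6 of miR-92b-3p. That run of 6 bases was the longest shared by any of the 6 pairs of these 4 mature RNAs.

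The hairpins are printed with both mature arms in capitals, because a gene's count can hold reads of either arm.
Mir92b: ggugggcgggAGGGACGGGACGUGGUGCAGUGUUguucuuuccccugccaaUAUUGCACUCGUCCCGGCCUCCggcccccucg
Mir137: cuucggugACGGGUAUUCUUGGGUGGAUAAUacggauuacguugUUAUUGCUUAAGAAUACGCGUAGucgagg
Mir149: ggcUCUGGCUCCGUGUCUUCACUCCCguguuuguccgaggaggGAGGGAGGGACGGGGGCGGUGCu
Mir153: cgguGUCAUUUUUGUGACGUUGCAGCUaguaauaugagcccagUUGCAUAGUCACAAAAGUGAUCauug

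The 4 hairpins lie in different kinds of places. Mir92b (ENSMUSG00000076255) is on the minus strand of chromosome 3 from 89227116 to 89227198 (mm10), inside no annotated gene and 28 bases from the end of Mtx1 that carries its annotated start, on the same strand. Mir137 (ENSMUSG00000065569) is on the plus strand of chromosome 3 from 118433857 to 118433929, where exons of 3 of the 6 transcripts of the noncoding gene Gm26871 overlap it. Mir149 (ENSMUSG00000065470), on chromosome 1 from 92850378 to 92850443, lies in an intron of Gpc1 on the same strand. Mir153 (ENSMUSG00000065538), on chromosome 12 from 117250817 to 117250885, lies in an intron of Ptprn2, which encodes a protein of dense-core secretory vesicles. The intron of Gm5441, an antisense gene, covers Mir153 on the opposite strand.

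Sequence also gave a check on the name single-copy. The longest exact stretch a hairpin shared with any of the other miRNA genes, on either strand, was 15 bases for Mir149, 12 for Mir92b, 11 for Mir137 and 10 for Mir153. Relatives with mismatches break such a stretch, so this check does not see them. An example is miR-92a-3p, with the same base as miR-92b-3p at 19 of 21 positions. Their 8 mature RNAs had no exact match in transcripts of any other gene, apart from the overlapping Gm26871 for both arms of Mir137. Reads that map to several places were left out of the gene counts by the authors (29.5% and 29.2% of the reads of replicates 1 and 2). Matches in the genome outside transcripts were not examined.

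The libraries held 3955893 and 3428269 reads, of which 1281201 and 1297647 were counted on the sense strand of miRNA genes. Levels are sense counts scaled to the summed sense counts of the miRNA gene rows, as CPM. The limit that a count of 0 allows, 3 counts, is 2.34 CPM in replicate 1 and 2.31 CPM in replicate 2. Intervals are 95% exact Clopper-Pearson intervals and, like that limit, cover counting error only, since reads copied by PCR are not independent molecules. By uniquely mapped reads, markers of other tissues were low beside these genes for erythroid cells (606 and 371 CPM summed over 3 genes) and leukocytes (788 and 804 CPM over 4 genes). So were those of striated muscle (253 and 134 CPM over 8 genes, with Mir133b, Mir133a-2, Mir133a-1 and Mir1a-1 at 0) and the Hox clusters (210 and 84.0 CPM over 6 genes, with Mir196a-1 at 0). Multimapping reads are not in these sums, so markers with near copies, as the numbered names of the Mir133a genes imply, can be too low, also at 0. Copies of the marker genes were not examined. Vessel (Mir126a, 34601 and 30323 CPM), mesenchyme (23993 and 21693 CPM over 8 genes), epithelial (8297 and 7756 CPM over 7 genes) and eye, ear and choroid plexus markers (3901 and 3942 CPM over 5 genes) were higher. In bulk tissue, fewer cells that make a miRNA and less of it per cell cannot be told apart.

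Mir92b had the most counts of the 4 genes, with 23610 sense counts in replicate 1 and 20412 in replicate 2. These were 18428 CPM (interval 18196 to 18662) and 15730 CPM (15517 to 15946), a mean of 17079 ± 1908 CPM (SD, n = 2, as for every value with ± below). Mir92b alone made 1.71% ± 0.191 of the sense counts, and its level was higher in replicate 1.

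Mir149 came next, with 20737 and 17872 counts. Its levels were 16186 CPM (15968 to 16406) in replicate 1 and 13773 CPM (13573 to 13975) in replicate 2, a mean of 14979 ± 1706 CPM. The ranges of Mir92b and Mir149 across the libraries overlapped, since Mir92b in replicate 2 stood below Mir149 in replicate 1. Within each library, however, Mir92b had more counts than Mir149.

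Mir137, with 3536 and 3001 counts, had 2760 CPM (2670 to 2852) in replicate 1 and 2313 CPM (2231 to 2397) in replicate 2, a mean of 2536 ± 316 CPM. Mir153, with 2425 and 2575 counts, had 1893 CPM (1818 to 1970) and 1984 CPM (1909 to 2062), a mean of 1939 ± 64.8 CPM. Mir153 was the only one of the 4 that was lower in replicate 1, and its range did not overlap with that of Mir137. The 4 genes thus stood at 2 heights in both libraries, Mir92b and Mir149 at 13773 CPM or above and Mir137 and Mir153 at 2760 CPM or below. Together they made 3.65% ± 0.387 of the sense counts, and Mir92b and Mir149 gave 87.7% ± 0.611 of that sum.

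**Figure D1:**
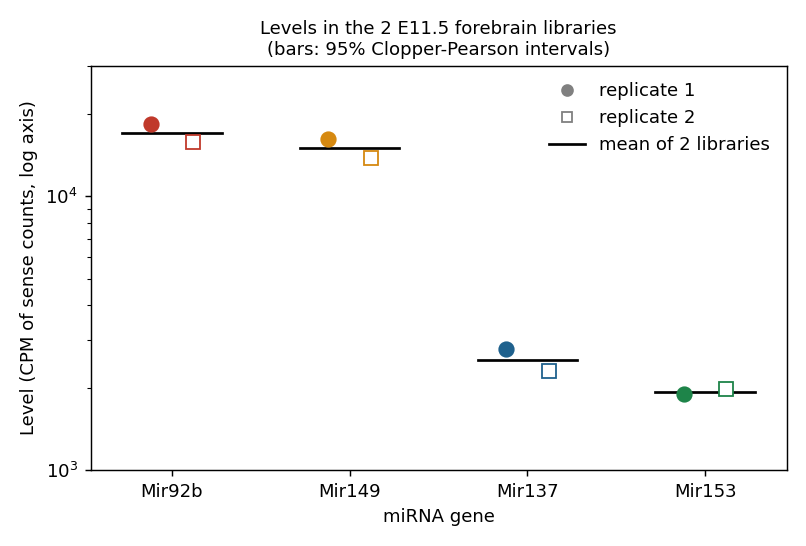
Level of each gene (CPM of sense counts, log axis) in replicate 1 (filled circles) and replicate 2 (open squares), with 95% Clopper-Pearson intervals, which are smaller than the symbols, and the mean as a line. Mir92b and Mir149 sit between 13773 and 18428 CPM and Mir137 and Mir153 between 1893 and 2760 CPM, and only Mir153 is lower in replicate 1.

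Ratios within a library do not depend on how the libraries are scaled. They are ratios of counts, and their intervals cover counting error only. Whether different miRNAs were read with the same efficiency was not tested. Mir92b exceeded Mir149 by 1.14-fold in both libraries, a log2 ratio of 0.19 in replicate 1 (0.16 to 0.21) and 0.19 in replicate 2 (0.16 to 0.22). A read of this size spans a whole mature RNA, so counts were compared without a correction for length. Divided by hairpin length (83 bases for Mir92b, 66 for Mir149), the log2 ratio turned to -0.14, so the order of these neighbours depends on that choice. Mir149 exceeded Mir137 by 5.86-fold and 5.96-fold, a log2 ratio of 2.56 ± 0.02 (2.71 per hairpin length). Mir137 exceeded Mir153 by 1.46-fold in replicate 1 and 1.17-fold in replicate 2, a log2 ratio of 0.54 (0.47 to 0.62) and 0.22 (0.14 to 0.30). Per hairpin length its mean was 0.30 in place of 0.38.

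Mir92b, Mir149 and Mir137 held their proportions between the libraries closely. The log2 ratio of Mir92b to Mir137 was 2.74 and 2.77, and for the 3 pairs of these genes replicate 1 minus replicate 2 came to between -0.0045 and -0.027. Ratios that involve Mir153 differed by 0.297 to 0.323 in the same direction of subtraction. The intervals of the libraries did not overlap for these 3 pairs, which all hold Mir153 and so repeat a single shift. Such intervals cover counting error only, by which 64.9% of the 94 genes with a mean count of 2000 or more were called between libraries. Mir92b exceeded Mir153 by 9.74-fold in replicate 1 and 7.93-fold in replicate 2, and Mir149 exceeded it by 8.55-fold and 6.94-fold. With 2 libraries, the shift of Mir153 could not be tested against the spread between replicates.

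Places among all miRNA genes hold for uniquely mapped reads only. The multimapping reads left out, 1165381 and 1001079, are nearly as many as the sense counts, and genes with near copies can be ranked too low beside these 4. Ranked by mean CPM, Mir92b was 13th of 1973 (10th in replicate 1 and 15th in replicate 2), Mir149 16th (15th and 18th), Mir137 71st (70th and 77th) and Mir153 87th (88th and 85th). Of all rows, 21.5% (424 genes) reached 2 CPM in replicate 1 and in replicate 2, called detected here, and their median was 143 CPM. Mir92b was 119 times, Mir149 105 times, Mir137 17.7 times and Mir153 13.5 times that median. All 4 were above 1000 CPM in the mean, as were 112 genes in all (5.68% of the rows).

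**Figure D2:**
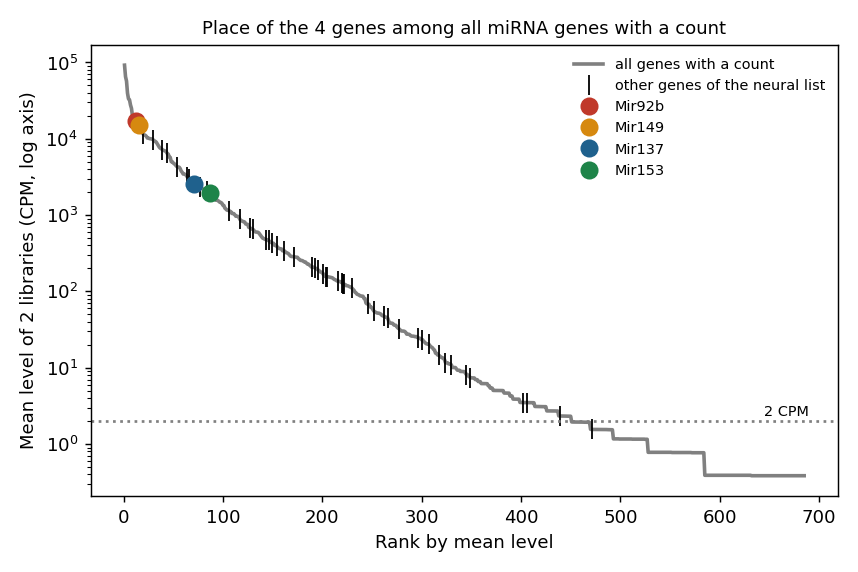
Mean level of 2 libraries (CPM, log axis) against rank for the 685 miRNA genes with a count (grey line), with the 4 genes as coloured points and other genes of the neural list as black ticks. Mir92b and Mir149 stand at ranks 13 and 16, Mir137 and Mir153 at ranks 71 and 87, and most other neural genes lie further down the curve.

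Other miRNAs known from neural progenitors and neurons were read from a list of 52 genes that includes these 4. A row was present for 51, of which 49 were detected. The median of the 51 was 189 CPM, beside 143 CPM over the detected genes of the whole table. By uniquely mapped reads, Mir92b and Mir149 were the highest of the list, and Mir137 and Mir153 were in places 10 and 13. Of the 51 genes, 26 share 20 bases or more with another miRNA gene on either strand. Where that gene is a copy elsewhere, counts can be too low, and these places can change with the reads left out. Copies elsewhere and antisense genes at the same place, whose reads map once, were not told apart. Mir181d followed Mir149 at 11394 ± 758 CPM and Mir181c at 9644 ± 117 CPM, both from the miR-181 family. Among 20 neural genes put together as single-copy, these 4 included, Mir92b, Mir149, Mir137 and Mir153 took places 1, 2, 5 and 7. Both lists were chosen with earlier results of these data known, so the places only describe them. Mir708 (4326 ± 108 CPM), Mir139 (3185 ± 52.4 CPM) and Mir134 (2040 ± 54.5 CPM) stood between or beside them. Mir708 is one of the 26, with a shared stretch of 23 bases, and so is Mir338 of these 20 genes (156 ± 3.60 CPM), with 87 bases.

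The genes most like each of the 4 were taken as the 3 nearest by distance of log2(CPM + 1) over the 2 libraries. For Mir92b they were Mir322 (17764 ± 328 CPM, distance 0.160), Mir26b (16646 ± 307 CPM, 0.194) and Mir149 (0.268). For Mir149 they were Mir100 (14847 ± 241 CPM, 0.142), Mir744 (14655 ± 11.5 CPM, 0.168) and Mir92b. Mir322, Mir26b, Mir100 and Mir744 changed less between the libraries than Mir92b and Mir149 did, with SDs of 11.5 to 328 CPM against 1706 and 1908 CPM. Mir137 had a very close match in Mir1193 at a distance of 0.0222, with 2718 and 2313 CPM against its own 2760 and 2313 CPM. Mir203 (2553 ± 107 CPM, 0.121) and Mir125b-1 (2366 ± 187 CPM, 0.152) were the next nearest to Mir137. For Mir153 they were Mir134 (0.104), Mir188 (2100 ± 24.4 CPM, 0.167) and Mir425 (2033 ± 163 CPM, 0.189), of which Mir134 and Mir188 were, like Mir153, lower in replicate 1. Likeness over 2 libraries of 1 group is mostly likeness in level.

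Mir92b was the largest source of uniquely mapped counts among the 7 genes that carry the seed AUUGCAC, and the family made 3.29% ± 0.323 of all sense counts. Mir92b gave 52.3% of the family's counts in replicate 1 (51.9 to 52.8%) and 51.3% in replicate 2 (50.8 to 51.8%). Mir92-1, the miR-92a gene of the miR-17-92 transcript of dividing cells, had 8931 and 7474 CPM, so that Mir92b exceeded it by 2.06-fold and 2.10-fold. Mir363, of the X-linked miR-106a-363 cluster, had 5042 and 4976 CPM or 15.3% ± 1.35 of the family. Mir25, in the gene Mcm7, had 1159 and 1059 CPM, Mir92-2, the other miR-92a gene, 1048 and 840 CPM, and Mir32 614 and 586 CPM. Mir367, the embryonic stem cell member, had 4 counts in replicate 1 and 0 in replicate 2, which allows up to 2.31 CPM there.

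The place of Mir92b in its family carries a limit from multimapping. Mir92-1 and Mir92-2 make the same miR-92a-3p and share a stretch of 22 bases, so reads of miR-92a-3p that fit both genes are not in their counts. Their levels can therefore be too low, and the share of Mir92b too high, by an unknown amount. Whether miR-92a-3p would stand above Mir92b with those reads counted is not known. The stretches that Mir92b, Mir363, Mir25, Mir32 and Mir367 share with other miRNA genes do not exceed 14 bases, and of the counts of these 5 genes Mir92b gave 71.7%. Leaving out Mir92-1 and Mir92-2 can only raise the share, so that value does not measure the effect of the lost reads. Whether reads with a mismatch moved between miR-92a-3p and miR-92b-3p was not tested.

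**Figure D3:**
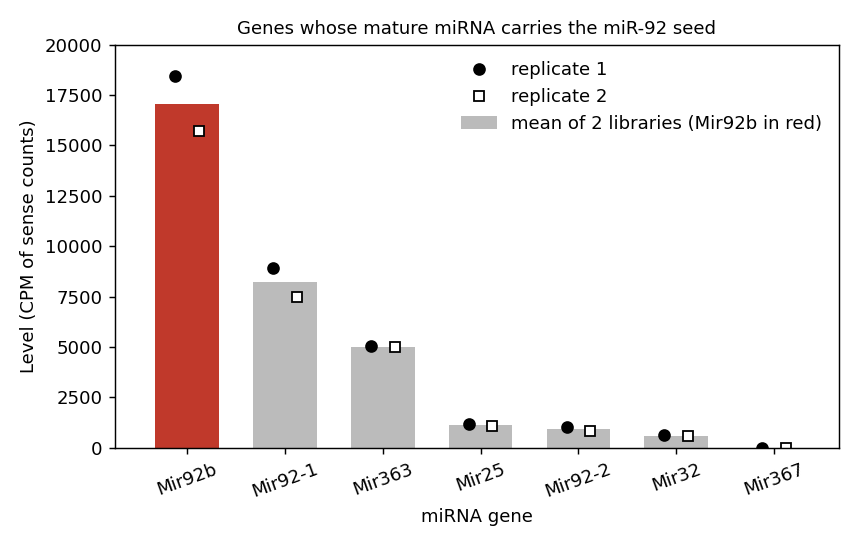
Level (CPM of sense counts, axis from 0) of the 7 genes with the miR-92 seed, as the mean of 2 libraries (bars) with replicate 1 (filled circles) and replicate 2 (open squares). Mir92b stands at 18428 and 15730 CPM, Mir92-1 at 8931 and 7474 CPM, and Mir367 at or near 0.

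The 2 heights of level went with base composition among these 4 genes. The hairpins of Mir149 and Mir92b held 68.2% and 67.5% G and C, above those of 93.6% and 92.5% of the 424 detected genes or equal to them. Mir137 held 45.2% and Mir153 42.0%, at percentiles 27.8 and 16.5. Of the mature RNAs, miR-92b-3p held 63.6% G and C, miR-149-5p 60.9%, miR-153-3p 36.4% and miR-137-3p 34.8%. Across the 424 genes the relation ran weakly the other way (Spearman's rho -0.144 and Pearson's r -0.156 with log2 level), as a description over genes that share the same 2 libraries. Folded with RNAfold, the Mir92b hairpin had the lowest free energy, -52.7 kcal/mol, and Mir149 had -36.7, Mir137 -31.2 and Mir153 -30.8 kcal/mol. The part of base composition in the level differences among the 4 genes was not tested.

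Reads of the 4 genes came from the strand of the gene. Mir92b had 1 count on the opposite strand in replicate 1, or 0.00424% of its counts, and 0 in replicate 2. Mir137, Mir149 and Mir153 had 0 in both, which allows a share of up to 0.0848% and 0.09997% for Mir137, 0.0145% and 0.0168% for Mir149 and 0.124% and 0.117% for Mir153. Over all miRNA genes, 96.4% and 96.8% of the counts were on the sense strand. The single other miRNA gene near any of them, Gm24155, lies 792 bases from Mir137 in the same host gene and had 2 counts in replicate 1 and 0 in replicate 2.

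Between the libraries, Mir92b, Mir137 and Mir149 were higher in replicate 1 by similar amounts, and Mir153 was not called. The log2 ratio of replicate 1 over replicate 2 was 0.23 for Mir92b (0.20 to 0.26), with an adjusted p of 5.9e-60 by an exact binomial test, Benjamini-Hochberg over 398 genes. It was 0.23 for Mir149 (0.20 to 0.26, adjusted p = 9.91e-55) and 0.26 for Mir137 (0.18 to 0.33, adjusted p = 1.09e-11) in the same exact test. For Mir153 it was -0.07 (-0.15 to 0.01, adjusted p = 0.227). This test compares the 2 libraries, not conditions, and takes account of counting error alone.

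The 3 calls are read against how many genes were called in all. At an adjusted p under 0.05, 28.4% of the 398 genes with 10 counts or more were called, 20.6% higher in replicate 1 and 7.79% lower. Of 94 genes whose mean count reached 2000, as that of these 4 did, 64.9% were called, and the median size of the log2 ratio among the 94 was 0.10. A 2-fold minimum left 2.76% of the genes and 0 of these 4. The spread between the libraries, as the biological coefficient of variation in edgeR after TMM scaling, was 10.3%. The 4 genes had coefficients of variation of 11.2% (Mir92b), 11.4% (Mir149), 12.5% (Mir137) and 3.34% (Mir153). These are of CPM without TMM scaling and hold counting error, so they are not on the scale of the 10.3%. After TMM scaling, log2 ratios were 0.16 for Mir92b, 0.16 for Mir149, 0.18 for Mir137 and -0.14 for Mir153. With the biological coefficient of variation set to 20% in the edgeR exact test, 0 of 398 genes were called, with 13 at an unadjusted p under 0.05. TMM scaling gave 52 genes higher and 54 lower in place of 82 and 31. TMM and DESeq2 scaling kept the direction of all 4 and turned Mir153 into a call, at -0.14 (adjusted p = 0.0032, exact binomial test) and -0.12 (adjusted p = 0.0167, exact binomial test).

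Markers of other cell types differed between the libraries to unequal degrees. Over all 398 tested genes, 20.6% were called higher in replicate 1 and 7.79% lower. Calls were more frequent at high counts: of the 94 genes whose mean count reached 2000, 38 were called higher and 23 lower. Those 94 include Mir126a and the mesenchyme markers Mir143, Mir214, Mir22 and Mir140. Mir126a of vessels was called higher in replicate 1 (log2 ratio 0.19). Of the mesenchyme markers, 5 of 8 were called higher (log2 ratios 0.10 to 0.57) and 1 lower (-0.40). Of the Hox markers 2 of 4 tested were higher (Mir10a 1.52, Mir10b 1.37) and 0 lower. Of the striated muscle markers 2 of 4 tested were higher (Mir208b 0.99, Mir208a 0.92) and 0 lower. Of the erythroid markers, 1 of 3 was higher (Mir451a 1.01) and 0 lower, and of the epithelial markers 1 of 7 was higher (Mir429 0.30) and 1 lower (Mir205 -0.13). The eye, ear and choroid plexus markers had 1 of 5 higher (Mir204 0.42) and 2 lower (Mir211 -1.19, Mir182 -0.15). The leukocyte markers had 0 of 4 called in either direction by the exact binomial test. Which part tissue makeup has in the higher Mir92b, Mir149 and Mir137 of replicate 1 was not tested.

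**Figure D4:**
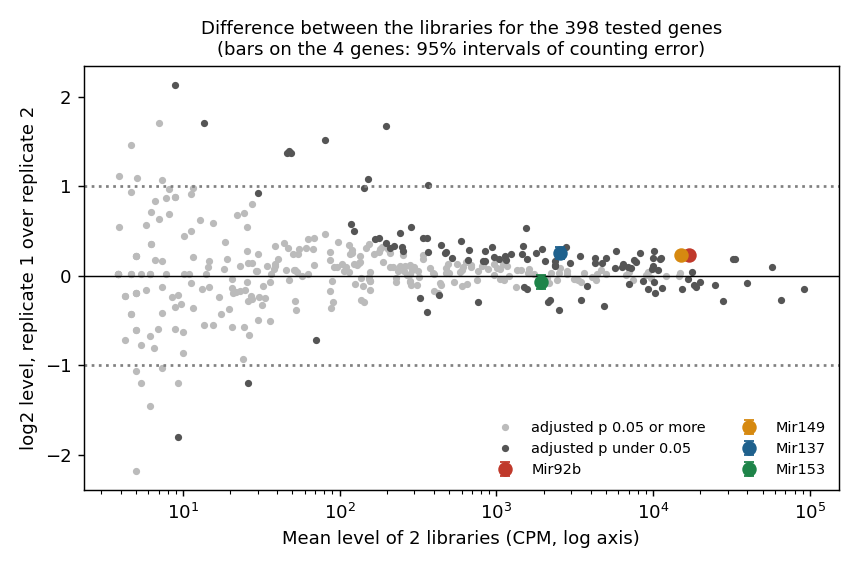
The log2 level of replicate 1 over replicate 2 against mean level (CPM, log axis) for the 398 tested genes, in dark grey where the adjusted p was under 0.05, with dotted lines at 2-fold and 95% intervals of counting error on the 4 genes. Mir92b, Mir149 and Mir137 lie together at 0.23 to 0.26 and Mir153 at -0.07, all well inside 2-fold.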

How the data were processed

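MicroRNA-seq of 2 libraries of E11.5 forebrain gave the data. The authors deposited raw read counts per miRNA gene, for both strands together, the sense strand and the opposite strand. Per the text files deposited with them, the counts are on mm10 with annotation M4. Which aligner and counting tool made them is not given in the sources used here. Rows that name no gene, 4 in all (unmapped, multimapping, no feature, ambiguous), stayed out of totals and tests. They held 29.3% and 25.3% (unmapped), 29.5% and 29.2% (multimapping) and 7.61% and 6.34% (no feature) of the reads.

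Sense counts were scaled to CPM. Of 1973 identifiers, 1894 were found in GENCODE M21, which gave symbols, positions and hosts, and hairpins were compared among its 2201 miRNA genes. Symbols of listed genes were matched through RefSeq synonyms. Genes with 10 counts or more were compared between libraries by a two-sided exact binomial test (threshold 0.05, 0.5 counts added to log2 ratios). The test was also run on simulated counts with counting error only. That is the error it assumes, so the simulation does not bear on the spread between libraries. Alternative scalings and the error model used edgeR 4.0.16 and DESeq2 1.42.0, in R 4.3.3. Python 3.11.15, scipy 1.17.1 and RNAfold 2.7.2 did the rest.

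The 4 genes and the lists were chosen with earlier results of these data known. Named were the 4 genes, the genes of the miR-92 seed family, the 3 nearest genes of each, miRNA genes within 10 kb or in the same host, and up to 4 genes of each list. Levels of listed marker genes are given as sums. Lists held Mir9-1, Mir142a, Mir486b and Mir1a-2, which have no row. Alternatives covered strand, scaling, denominator, hairpin length, filters, added counts, the error model and each replicate.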

Additional observations from a re-analysis of the deposited data

How the results depend on the processing

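The order of the 4 genes by counts was the same in each replicate alone, and levels with unstranded counts, edgeR TMM factors and DESeq2 size factors moved by less than the SD between libraries, except for Mir153 with unstranded counts (1872 CPM). With all mapped reads, multimapping ones included, as the denominator, levels were 8210 CPM for Mir92b, 7200 CPM for Mir149, 1219 CPM for Mir137 and 937 CPM for Mir153. Per hairpin length the log2 ratio of Mir92b to Mir149 reversed to -0.14 and those of Mir92b to Mir137, Mir92b to Mir153 and Mir149 to Mir137 became 2.57, 2.87 and 2.71, by construction of the lengths. Without the 2 miR-92a genes the family share of Mir92b was 71.7%, a rise that follows from leaving genes out. With the coefficient of variation set to 0.2, edgeR's exact test gave the same log2 ratios between libraries, 0.23 for Mir92b, 0.26 for Mir137 and 0.23 for Mir149, each with an adjusted p of 1 by that exact test, and it called 0 genes in either direction and 0 with a 2-fold minimum. Mir153 became a call at -0.14 with TMM and -0.12 with DESeq2 scaling. Genes called higher in replicate 1 fell from 82 to 52 with TMM, and those called lower rose from 31 to 54 with TMM and 49 with DESeq2. These scalings moved the median log2 ratio of the tested genes by -0.07 and -0.05. Leaving out a library leaves no test between libraries, so none was run. Detection of the neural list held at 44 to 51 genes. With 2 libraries, each SD rests on 1 difference. No paired analysis was possible because the series has 1 group.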

Other observations

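Of the 51 neural genes with a row, 26 share a stretch of 20 bases or more with another miRNA gene on either strand and 25 do not. The 26 can include genes with an antisense gene at the same place as well as genes with copies elsewhere. The 26 had a median of 162 CPM and a highest value of 4326 CPM (Mir708), with 4 above 1000 CPM and 10 under 100 CPM. The 25 had a median of 435 CPM and a highest value of 17079 CPM (Mir92b), with 10 above 1000 CPM and 7 under 100 CPM. Without the 4 genes described here, the remaining 21 had a median of 156 CPM and a highest value of 11394 CPM (Mir181d). Of these 21, 6 were above 1000 CPM and 7 under 100 CPM. Mir1193, picked from all gene rows as the nearest to Mir137 by level, had nearly the same level as Mir137 in both libraries. That likeness follows from the choice. Mir137 lies on chromosome 3 and Mir1193 on chromosome 12 from 109715671 to 109715791, among the miRNA genes of the imprinted Dlk1-Dio3 region.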
